A study of Mus musculus with 48 samples.

Results

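The chemokines and colony-stimulating factors described here are 10 genes, Cxcl1, Cxcl2, Cxcl5, Cxcl10, Cxcl12, Ccl2, Ccl5, Ccl7, Csf1 and Csf3. They were taken as the 17 probe sets annotated to 1 of these symbols alone, of 45037 probe sets on the array without controls. Of the 17, 16 entered the tests, among 27500 probe sets tested, and every one of the 10 genes kept at least 1. The members are secreted proteins, and their signals were measured as messenger RNA in fibroblast lines made from littermate embryos of a 129/B6 cross. The embryonic day was the same for all groups and is given with the processing of the data. The tested line has Zfp36 disrupted (KO, Zfp36 -/-) and the other has Zfp36 intact (WT, Zfp36 +/+). Zfp36 encodes tristetraprolin, which speeds the decay of messenger RNAs by binding their AU-rich elements. All 10 groups, of both lines, were held for 16 h in 0.5% serum and then given 10% serum for 90 min. Actinomycin D, which stops transcription, followed for 0, 30, 60, 90 or 120 min. Groups hold n = 5 arrays from 5 experiments run on different days, with n = 4 in the 0 and 60 min groups of KO, and so 48 arrays in all, and each sample combines 3 dishes. The labels point to 1 line per genotype, so a difference between KO and WT cannot be told apart from a difference between 2 cell lines. For actinomycin D the labels state 5 ug/ml, 0.5 ug/ml and 5 mg/ml in different places, and which dose was used is not settled.

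Values are log2 signals as deposited. Array medians lay between 8.47 and 8.56, the highest 5th percentile of an array, used here as the floor of the measurement, was 8.13, and array maxima lay between 13.28 and 13.43. Of the 9 fibroblast markers, Vim (12.98 to 13.25 in KO and 13.06 to 13.33 in WT), Col1a1, Col1a2, Col3a1, Dcn and Pdgfrb lay well above the array median in both lines. Pdgfra had 10.06 to 10.58 in KO and 8.55 to 9.60 in WT, Lum 8.48 to 9.19 in KO and 8.21 to 8.58 in WT, and Thy1 stayed between 8.01 and 8.20, at the floor. The part of the Pdgfra and Lum differences in the results was not tested. Ptprc and Cd68, markers of blood cells and macrophages, stayed between 8.29 and 8.77 in all arrays, close to the array median. The summed signal of the 9 macrophage and blood markers ran from 3086 to 3779 in KO arrays and from 3047 to 3559 in WT arrays. Cd14 was the member of that list with the highest signal, 8.73 to 10.05 in KO and 8.81 to 9.33 in WT, and its part in the results was not tested. The Zfp36 probe set averaged 9.51 ± 0.16 in KO (SD, n = 4) and 9.86 ± 0.16 in WT (n = 5) at 0 min. The difference of -0.35 had a limma adjusted p of 0.00245. Whether that probe set reads the disrupted stretch is not stated, and it therefore cannot serve as a check of genotype. In cultures of this kind, fewer cells making a transcript and less of it per cell cannot be told apart.

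Chemokines are small secreted proteins that draw leukocytes along a gradient through G protein-coupled receptors. Cxcl1, Cxcl2 and Cxcl5 act on neutrophils through Cxcr2, Cxcl10 acts on activated T cells through Cxcr3, and Cxcl12 holds blood progenitors in bone marrow through Cxcr4. Ccl2 and Ccl7 draw monocytes through Ccr2, Ccl5 draws T cells and monocytes, Csf1 keeps macrophages alive through Csf1r, and Csf3 drives the formation of neutrophils through Csf3r. Fibroblasts make many of these proteins when serum, interleukin-1 or tumour necrosis factor reaches them, partly through the transcription factor NF-kappaB, and several of the transcripts carry AU-rich elements.

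Promoters of 5 members were found in the RefSeq table for the mouse assembly GRCm38.p6, those of Cxcl1, Cxcl2, Cxcl10, Csf1 and Cxcl12. Cxcl5, Ccl2, Ccl5, Ccl7 and Csf3 are named only. In the order of genes in the same annotation, Cxcl5, Ppbp, Pf4, Cxcl3, Cxcl15, Cxcl1 and Cxcl2 follow each other on chromosome 5, and Ccl2 and Ccl7 are next to each other on chromosome 11. Each sequence below runs from 200 to 51 bases before the annotated start of transcription, 5′ to 3′ on the gene's strand. They are shown because NF-kappaB is a known regulator of several of these genes. Capitals mark matches to GGGANNTTC, a form of the NF-kappaB motif, searched on both strands.
Cxcl1: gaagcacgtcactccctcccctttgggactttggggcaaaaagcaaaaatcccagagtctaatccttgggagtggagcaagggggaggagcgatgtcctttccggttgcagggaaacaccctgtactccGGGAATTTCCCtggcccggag
Cxcl2: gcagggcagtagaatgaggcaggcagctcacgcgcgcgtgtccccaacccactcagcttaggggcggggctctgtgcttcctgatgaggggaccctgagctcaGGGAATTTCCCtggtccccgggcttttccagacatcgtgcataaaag
Cxcl10: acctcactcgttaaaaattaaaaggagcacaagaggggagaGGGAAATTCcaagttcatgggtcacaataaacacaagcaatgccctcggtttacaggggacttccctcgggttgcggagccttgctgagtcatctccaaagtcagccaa
Csf1: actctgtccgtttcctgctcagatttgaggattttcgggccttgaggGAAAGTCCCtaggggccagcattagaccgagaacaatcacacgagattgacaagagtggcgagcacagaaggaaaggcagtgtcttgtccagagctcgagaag
Cxcl12: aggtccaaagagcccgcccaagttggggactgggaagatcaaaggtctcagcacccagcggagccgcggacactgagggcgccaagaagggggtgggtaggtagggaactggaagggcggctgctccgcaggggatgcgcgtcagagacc
The windows are chr5:90891045-90891194 on the plus strand for Cxcl1, chr5:90903699-90903848 on the plus strand for Cxcl2 and chr5:92348940-92349089 on the minus strand for Cxcl10. Those of Csf1 and Cxcl12 are chr3:107760520-107760669 on the minus strand and chr6:117168335-117168484 on the plus strand. Cxcl1 and Cxcl2, which lie beside each other, both carry GGGAATTTCC within the capitals, starting 71 bases before the start in Cxcl1 and 97 bases before it in Cxcl2. That exact string was read from the Cxcl1 promoter before it was searched for, so its presence in Cxcl1 was fixed in advance. It is in 0.0639% of 32851 promoter windows of the same 150 bases. The wider GGGANNTTC, of which that string is a case, is in 1.98% of them and in 4 of the 5 members' windows, with none in that of Cxcl12. In Cxcl1 and Cxcl2 the wider motif also matches on the opposite strand, overlapping the first match, and in Csf1 it matches on the strand opposite the gene. TGANTCA, a form of the AP-1 motif, matches at a place apart from the NF-kappaB match. It is in the Cxcl10 window alone of the 5, and in 4.27% of all windows. A match is a description of letters, not a site in use.

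The first comparison asks how the lines differed after serum, before any actinomycin D. Cxcl10, Csf3 and Cxcl2 were higher in KO, Csf1, Ccl7 and Cxcl12 were lower in KO, and Cxcl1, Cxcl5, Ccl2 and Ccl5 did not pass the test. Over all 27500 probe sets, 13.4% were called higher in KO and 11.9% lower in KO at 0 min, against 3 and 3 of the 10 members. Cxcl2 passed the filter on low values through KO arrays alone, being above the array median in 10 of 23 KO arrays and 0 of 25 WT arrays. Csf3 was above it in 23 of 23 KO arrays and 1 of 25 WT arrays. The counts are therefore a description and not support for a shift of the group. The median difference was 0.05 over the members and 0.01 over all probe sets tested.

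**Figure D1:**
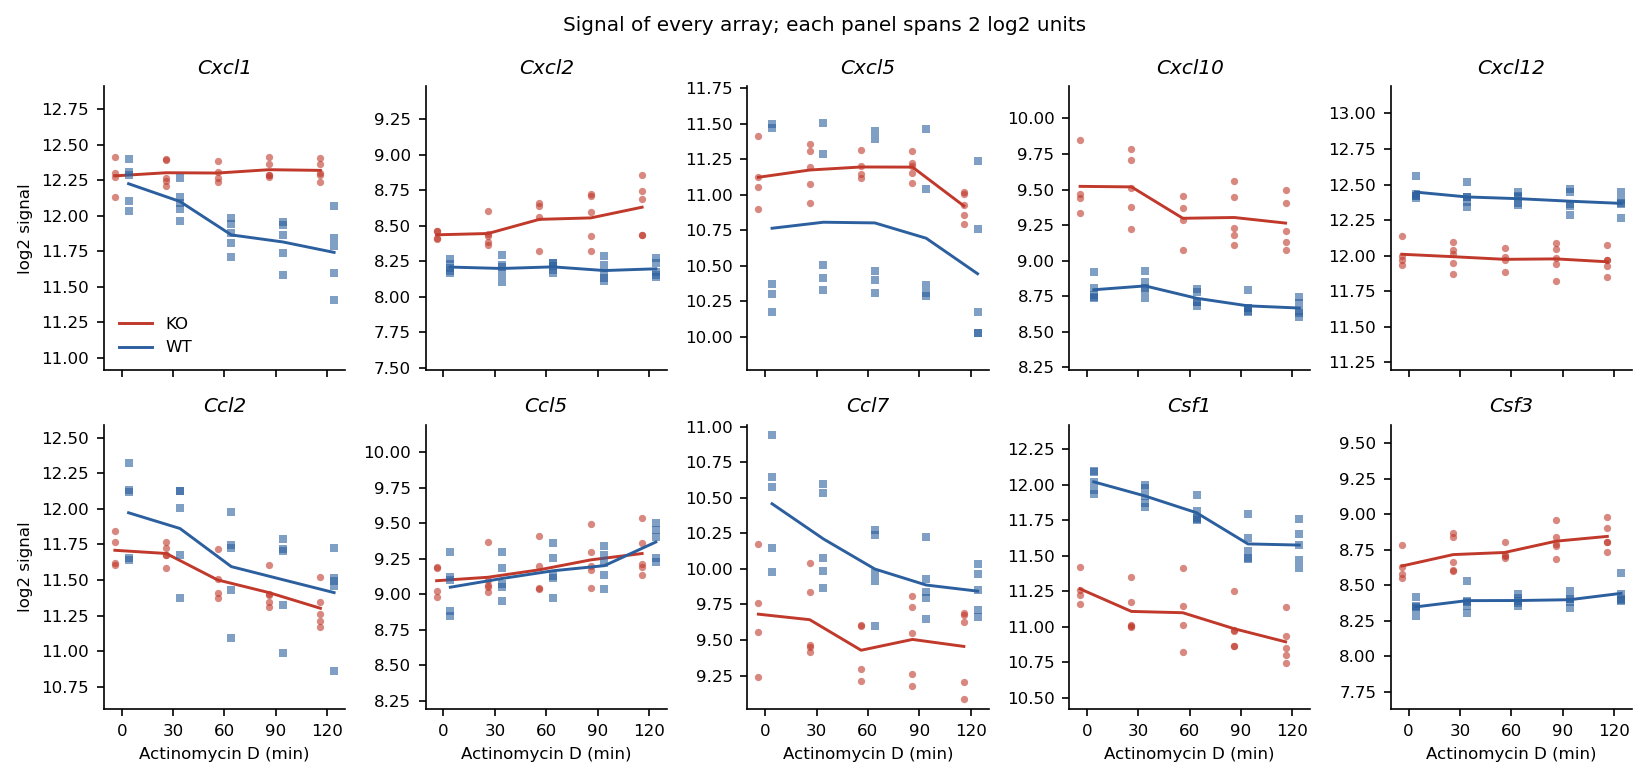
Log2 signal (vertical, 2 log2 units in every panel) against min of actinomycin D (horizontal) for the main probe set of each gene. Points are single arrays of KO (circles) and WT (squares), drawn slightly apart at each time, and lines join group means. KO and WT start together for Cxcl1 and part by 60 min, while for Csf1, Cxcl12, Cxcl10, Csf3 and Cxcl2 the KO and WT arrays do not overlap at any time.

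Cxcl1, a neutrophil chemokine, was the one member whose slope after actinomycin D differed between the lines past the threshold. Its signal fell in WT, and its slope in KO did not pass the test. Its KO arrays had 12.13, 12.30, 12.27 and 12.42 at 0 min, and its WT arrays 12.10, 12.03, 12.28, 12.30 and 12.40. The 2 sets overlapped, and the difference was 0.06 ± 0.084 (SE; limma adjusted p = 0.707). At 120 min the KO arrays had 12.24, 12.30, 12.29, 12.36 and 12.40, and the WT arrays 11.60, 11.79, 11.84, 11.41 and 12.07. Every KO array then lay above every WT array, and the difference of 0.58 ± 0.080, a signal 1.49-fold higher in KO, had a limma adjusted p of 1.41e-07. Between these times the difference was 0.20 at 30 min (adjusted p = 0.0548), 0.44 at 60 min (8.06e-05) and 0.51 at 90 min (1.86e-06), all by limma. With the experiment as a block the 30 min difference passed (adjusted p = 0.00847). The order of the 10 group means placed all 5 KO groups first and then WT from 0 to 120 min, and of the neighbours in that order WT at 30 and 60 min alone differed beyond their spread.

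The slope of Cxcl1, fitted as a straight line of log2 signal per hour, was 0.02 ± 0.036 in KO (limma adjusted p = 0.769) and -0.25 ± 0.035 in WT (6.76e-08). A slope of -0.25 corresponds to a halving of signal in 240 min, on values relative to the array average. The slopes differed by 0.27 ± 0.050 log2 per h (95% interval 0.17 to 0.37, limma adjusted p = 0.000967). Over all probe sets, 0.785% had a slope difference above 0 past the threshold and 0.251% one below 0, against 1 and 0 of the 10 members. The median slope difference was 0.07 over the members and -0.0012 over all probe sets tested. The change from 0 to 120 min differed by 0.52 ± 0.116 (limma adjusted p = 0.0122), a difference called in this direction for 0.553% of probe sets and in the other for 0.156%. It missed the threshold without experiment 1, 2, 3 or 4 (adjusted p 0.162, 0.0553, 0.0647 and 0.0644). The slope and this change share the arrays at 0 and 120 min and are not separate evidence.

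The slope difference of Cxcl1 passed for each of its 3 probe sets. It was 0.25 (limma adjusted p = 0.000819) for 1419209_at and 0.27 (0.00278) for 1441855_x_at, and the 0 min difference was 0.06 for both. These probe sets were higher in KO already at 30 min, by 0.23 (limma adjusted p = 0.012) for 1419209_at, whose KO and WT arrays did not overlap, and by 0.26 (0.026) for 1441855_x_at. The probe sets share a transcript and are not replicates. Within single experiments, the KO slopes of the main probe set, 1457644_s_at, were 0.06, 0.00, 0.01, -0.03 and 0.01 log2 per h in experiments 1 to 5, and the WT slopes -0.25, -0.15, -0.21, -0.45 and -0.19. Every KO slope lay above every WT slope, which was so for all 3 Cxcl1 probe sets, for 1 of the Csf1 probe sets (1425155_x_at) and for 1.89% of the probe sets tested, while the opposite order held for no member and 0.815%. Experiment 4 gave the steepest fall in WT. With signals above 12 in both lines at 0 min, Cxcl1 lay near the top of the range of the arrays.

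**Figure D2:**
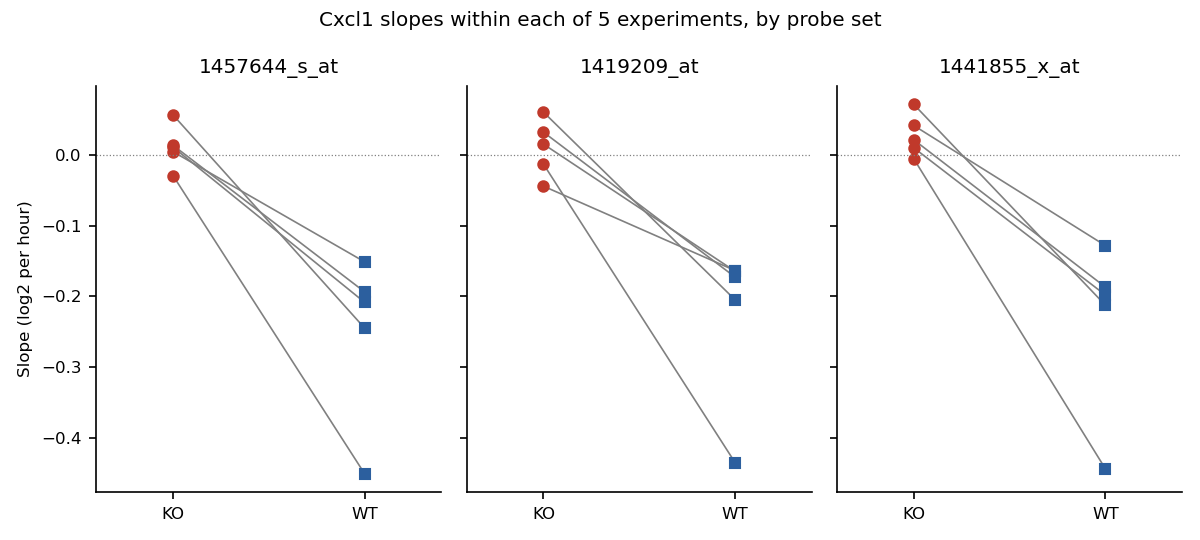
Slope of log2 signal per hour of actinomycin D (vertical) in KO (left) and WT (right) for the 3 Cxcl1 probe sets, with lines joining the slopes of the same experiment. All 5 KO slopes lie above all 5 WT slopes in each panel, and experiment 4 gives the lowest WT slope, -0.45 for 1457644_s_at.

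Cxcl2, the chemokine most like Cxcl1 in its receptor use, was higher in KO at each time but close to the floor. Cxcl2 had 8.41, 8.46, 8.41 and 8.46 in the KO arrays at 0 min, and the WT arrays 8.18, 8.17, 8.20, 8.23 and 8.27. Later, at 120 min, the KO arrays had 8.69, 8.86, 8.74, 8.43 and 8.43, and the WT arrays 8.24, 8.14, 8.27, 8.16 and 8.18. No KO array overlapped a WT array at any of the 5 times. The difference was 0.23 ± 0.070 at 0 min (limma adjusted p = 0.0122, and 0.0597 without experiment 2), 0.25 at 30 min (0.00346, and 0.0556 without experiment 1) and 0.43 ± 0.066 at 120 min (9.77e-07). The KO slope was 0.10 ± 0.029 log2 per h (limma adjusted p = 0.00643) and the WT slope -0.01 ± 0.028 (0.858). Cxcl2 passed the filter on low values through KO arrays alone, and the KO arrays at 0 min lay below the lowest array median, 8.47. The filter thus took Cxcl2 in through later KO arrays, and its KO rise is a description and not support. The KO slope came mainly from experiments 1 to 3, with 0.14, 0.21 and 0.16, against -0.00 and 0.04 in experiments 4 and 5. It missed the threshold without experiment 2 (0.07, adjusted p = 0.098) and without experiment 3 (0.08, 0.0783). The slope difference of 0.11 did not pass (adjusted p = 0.306). WT signals of 8.11 to 8.30 sat about the floor, where a fall could not have been detected and a difference between the lines is compressed, so the differences give the order of the lines and not a fold of RNA. With each array's 5th percentile subtracted and an offset of 50 added before the log, they were 0.70 at 0 min and 1.28 at 120 min, and the KO slope was 0.23. Near the floor these values depend on the offset and are not folds of RNA either. A rise after actinomycin D is relative to the array average and can be a smaller fall than that average.

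Csf3, the granulocyte colony-stimulating factor, followed the same order of lines at a similarly low level. Csf3 had 8.55, 8.63, 8.58 and 8.78 in the KO arrays at 0 min, and the WT arrays 8.34, 8.34, 8.42, 8.35 and 8.28. After 120 min the KO arrays had 8.73, 8.90, 8.81, 8.98 and 8.80, and the WT arrays 8.59, 8.40, 8.39, 8.39 and 8.44. The lines did not overlap at any time. The difference was 0.29 ± 0.055 at 0 min (limma adjusted p = 5.65e-05) and 0.40 ± 0.051 at 120 min (2.93e-08). With the 5th percentile of each array subtracted and the offset of 50 added it was 0.72 and 0.94, values that depend on the offset. As for Cxcl2, WT signals near the floor leave the size of the difference unsettled. The signal rose relative to the array average in KO, with a slope of 0.10 ± 0.023 (limma adjusted p = 0.000517), and the WT slope was 0.04 ± 0.022 (0.181). The slopes were not shown to differ (0.06, 95% interval -0.00 to 0.13, limma adjusted p = 0.597).

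Cxcl10, an interferon-inducible attractant of T cells, had the largest positive difference among the members at 0 min. The KO arrays had 9.33, 9.44, 9.47 and 9.85 and the WT arrays 8.74, 8.75, 8.81, 8.76 and 8.92. After 120 min the KO arrays had 9.13, 9.21, 9.08, 9.50 and 9.41, and the WT arrays 8.65, 8.63, 8.71, 8.61 and 8.74. The lines did not overlap at any time, and KO exceeded WT at every time in every experiment that held both arrays. The difference was 0.73 ± 0.094 at 0 min, a signal 1.66-fold higher in KO (limma adjusted p = 3.63e-08), and 0.60 ± 0.088 at 120 min (6.12e-07). With the 5th percentile of each array subtracted and the offset of 50 added it was 1.18 and 1.10. WT signals of 8.61 to 8.93 lay little above the array medians, and the size of the difference depends on the background subtracted and on the offset. Cxcl10 fell in KO, with a slope of -0.15 ± 0.040 (limma adjusted p = 0.00405, and 0.0502 without experiment 3). The WT slope of -0.08 ± 0.039 did not pass (adjusted p = 0.12). It did with the experiment as a block (0.0383) and with the 5th percentile of each array subtracted and the offset added (-0.17, 0.0246). The slope difference was -0.07 (95% interval -0.18 to 0.04, limma adjusted p = 0.781). KO arrays of experiments 4 and 5 ran from 9.41 to 9.85, against 9.08 to 9.51 in experiments 1 to 3, and the difference at 0 min was 0.65 within experiments 1 to 3. Within experiments 4 and 5 it was 1.01, resting on 1 KO array, that of experiment 4.

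Csf1, the macrophage colony-stimulating factor, was lower in KO at every time and by all 4 of its probe sets. By the main probe set, 1460220_a_at, the KO arrays at 0 min had 11.26, 11.42, 11.22 and 11.16, and the WT arrays 11.93, 11.96, 12.02, 12.10 and 12.09. By 120 min the KO arrays had 10.93, 11.14, 10.80, 10.85 and 10.75, and the WT arrays 11.41, 11.76, 11.65, 11.47 and 11.58. No KO array reached a WT array of the same time. The difference was -0.75 ± 0.089 at 0 min, a signal 1.69-fold lower in KO (limma adjusted p = 4.36e-09), and -0.68 ± 0.084 at 120 min (1.09e-08). Over the other 3 probe sets it ran from -0.99 to -0.68 at 0 min. In the order of levels all 5 WT groups stood above all 5 KO groups, and WT at 120 min and KO at 0 min, the neighbours at that step, differed beyond their spread.

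The main probe set of Csf1 fell in both lines, with slopes of -0.17 ± 0.038 in KO (limma adjusted p = 0.00043) and -0.25 ± 0.036 in WT (3.24e-07), and the slope difference of 0.07 did not pass (0.74). The 4 probe sets did not show the same slopes. Probe set 1448914_a_at fell in both lines (-0.16 in KO and -0.27 in WT), while 1425154_a_at had a slope of 0.03 in KO and fell in WT (-0.17). The KO and WT slopes of 1425155_x_at, 0.09 and -0.04, did not pass. The slope difference of 1425154_a_at was 0.19 (limma adjusted p = 0.129) and passed with the experiment as a block (0.20, adjusted p = 0.0421). Its KO slope exceeded the WT slope in 5 of 5 experiments, as did that of 1425155_x_at, whose KO slopes also lay above every WT slope, as for Cxcl1. Which Csf1 transcripts each probe set reads is not known here.

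**Figure D3:**
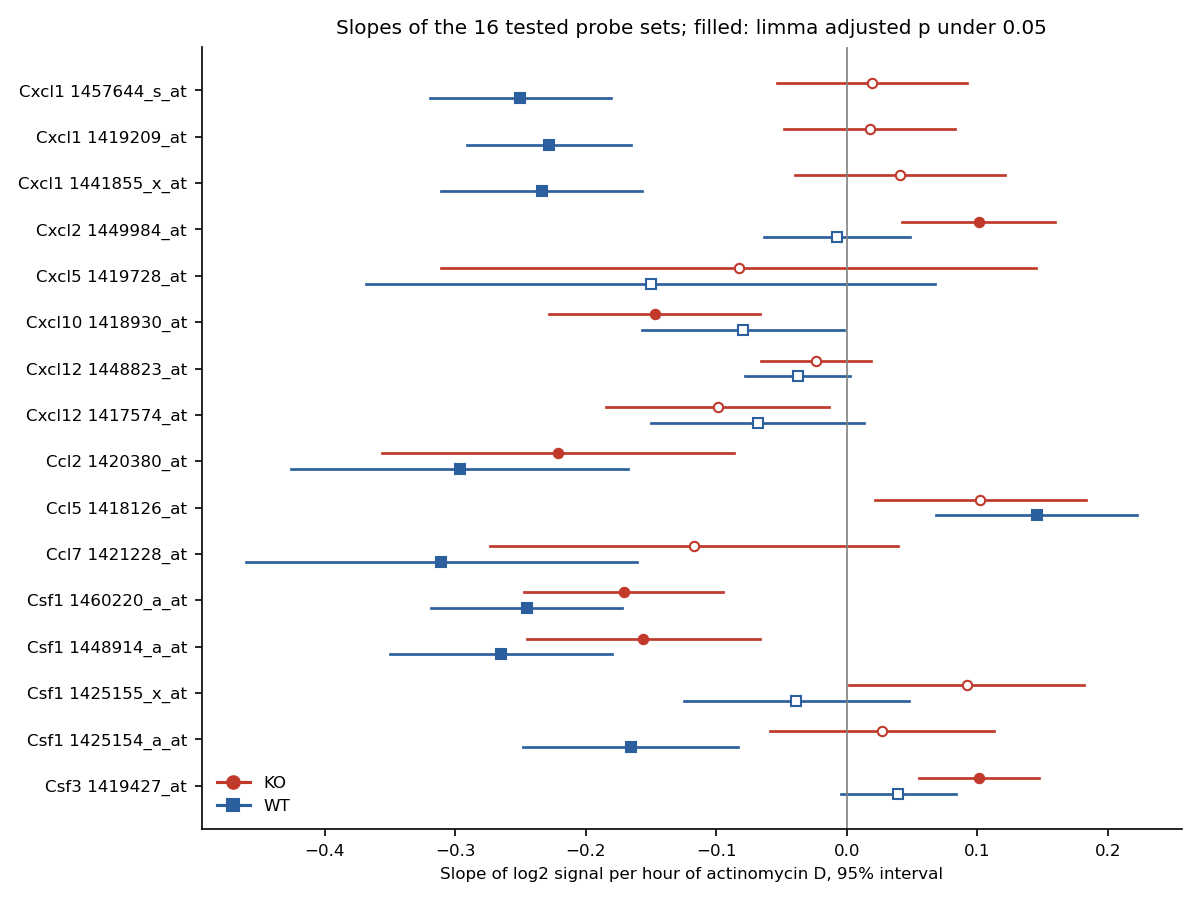
Slope of log2 signal per hour of actinomycin D (horizontal) with its 95% interval for the 16 probe sets tested, KO above WT in each pair. Filled symbols passed a limma adjusted p of 0.05 for a slope other than 0. The KO and WT intervals are apart for the 3 Cxcl1 probe sets and for 1425154_a_at of Csf1 (-0.06 to 0.11 in KO and -0.25 to -0.08 in WT).

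Cxcl12, the chemokine made constantly by stromal cells, was lower in KO and hardly moved with time. Cxcl12 had 11.94, 12.00, 11.97 and 12.14 in the KO arrays at 0 min, and the WT arrays 12.42, 12.41, 12.42, 12.56 and 12.43. At 120 min the KO arrays had 11.97, 11.92, 11.85, 12.08 and 11.97, and the WT arrays 12.27, 12.36, 12.39, 12.45 and 12.37. The lines did not overlap at any time by the main probe set, 1448823_at. The difference was -0.44 ± 0.051 at 0 min (limma adjusted p = 2.79e-09) and -0.41 ± 0.048 at 120 min (2.75e-09). Probe set 1417574_at gave -0.36 and -0.40, with overlapping arrays at 30 and 120 min, and 1439084_at, at 8.11 to 8.65, was not tested. The slopes of the main probe set were -0.02 ± 0.021 in KO and -0.04 ± 0.020 in WT, with limma adjusted p of 0.456 and 0.16. The WT slope passed with the experiment as a block (0.0304) and with quantile normalization (-0.06, 0.0089). With the block both slopes of 1417574_at passed too (-0.11 in KO, adjusted p = 0.000438, and -0.07 in WT, 0.0226). The slope difference of the main probe set was 0.01 (95% interval -0.04 to 0.07).

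**Figure D4:**
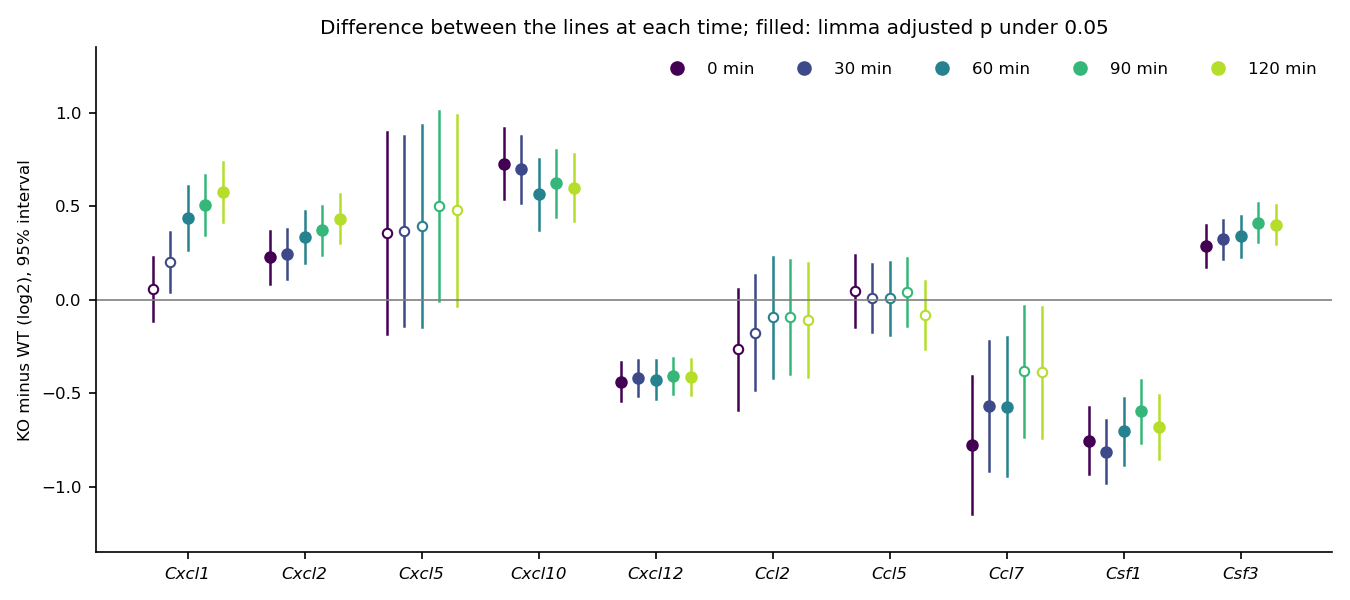
KO minus WT difference in log2 signal (vertical) with its 95% interval at 0, 30, 60, 90 and 120 min of actinomycin D, left to right within each gene. Filled points passed a limma adjusted p of 0.05. The differences of Cxcl1 (0.06 at 0 min and 0.58 at 120 min) and Cxcl2 (0.23 and 0.43) are larger at each later time, and of the 10 genes Ccl5 alone changes sign.

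Ccl7, a monocyte chemokine, was lower in KO at 0 min. The KO arrays had 9.56, 9.76, 9.24 and 10.18, and the WT arrays 10.64, 10.94, 10.58, 10.15 and 9.98. The lines overlapped, through the KO array of experiment 4 and the WT arrays of experiments 4 and 5. The difference was -0.78 ± 0.184, a signal 1.71-fold lower in KO (limma adjusted p = 0.00106). It was -0.57 at 30 min (adjusted p = 0.0108) and at 60 min (0.0176), and -0.38 and -0.39 at 90 and 120 min, which did not pass (0.101 and 0.0812). The calls at 30 and 60 min were lost without experiment 1, 2 or 3, with adjusted p of 0.0538 to 0.128, and without experiment 4 the differences at 90 and 120 min passed (-0.52 and -0.48, 0.024 and 0.0341). Ccl7 fell in WT (slope -0.31 ± 0.075, limma adjusted p = 0.000908), and the KO slope was -0.12 ± 0.078 (0.296). The slopes were not shown to differ (0.19, 95% interval -0.02 to 0.41, adjusted p = 0.641).

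Ccl2, the neighbour of Ccl7 and the main attractant of monocytes, fell in both lines. At 0 min the KO arrays had 11.76, 11.84, 11.62 and 11.61, and the WT arrays 12.13, 12.12, 12.32, 11.65 and 11.64. At 120 min the KO arrays had 11.21, 11.52, 11.26, 11.17 and 11.35, and the WT arrays 11.52, 11.49, 11.73, 10.86 and 11.46. The lines overlapped at both times. The slope was -0.22 ± 0.067 in KO (limma adjusted p = 0.00991, and 0.062 without experiment 1) and -0.30 ± 0.064 in WT (0.00026), and their difference was 0.08 (95% interval -0.11 to 0.26, adjusted p = 0.861). The difference between the lines at 0 min, -0.26 ± 0.161, did not pass (limma adjusted p = 0.251), and with the experiment as a block it did (-0.29, 0.0328).

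Cxcl5, another ligand of Cxcr2, had the widest spread of the members, and the spread lay between experiments. At 0 min the KO arrays had 10.90, 11.05, 11.12 and 11.41, and the WT arrays 10.37, 10.18 and 10.30 in experiments 1 to 3 but 11.47 and 11.50 in experiments 4 and 5. At 120 min the KO arrays had 10.93, 11.02, 11.01, 10.86 and 10.79, and the WT arrays 10.03, 10.03, 10.17, 10.76 and 11.23. The difference between the lines, 0.36 ± 0.268 at 0 min and 0.48 ± 0.252 at 120 min, did not pass (limma adjusted p 0.372 and 0.146), and with the experiment as a block it did (0.046 and 0.024), as it also did at 60 and 90 min (0.0478 and 0.0198). The block takes out a level shared by both lines, while the level of Cxcl5 shifted in WT. In experiments 1 to 5, KO minus WT at 120 min was 0.899, 0.995, 0.834, 0.095 and -0.439. The p-values with the block do not measure that spread between experiments. Without experiment 5 the 120 min difference was 0.71 and passed (0.0154). Neither slope passed, at -0.08 in KO and -0.15 in WT.

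The WT arrays of experiments 1 to 3 and of experiments 4 and 5 did not overlap for Cxcl5 at any time, with 10.03 to 10.51 and 10.76 to 11.50, which was so for 0.924% of probe sets tested. The KO arrays ran from 10.90 to 11.22 and from 10.79 to 11.41 in the same experiments. For the main Cxcl1 probe set it was the KO arrays that did not overlap, with 12.13 to 12.31 in experiments 1 to 3 and 12.36 to 12.42 in experiments 4 and 5, which was so for 4.16% of probe sets. This division of the experiments was chosen after values were seen, and experiments 4 and 5 hold 1 KO array each at 0 and 60 min. KO minus WT for Cxcl5 at 0 min was 0.74 within experiments 1 to 3 and -0.07 within experiments 4 and 5. For Ccl7 it was -1.20 and 0.11, and for Ccl2 -0.45 and -0.04. Over all times, the mean of experiments 4 and 5 minus that of experiments 1 to 3 was 1.01 in WT and 0.12 in KO for Cxcl5. It was -0.53 in WT and -0.12 in KO for Ccl2, and -0.37 in WT and 0.43 in KO for Ccl7. For Ccl2 and Ccl7 the WT arrays of the 2 sets overlapped. These genes prompted the division, so their values are given with no test, and the difference between the 2 sets of experiments was not tested. For Cxcl1, KO minus WT at 120 min was 0.53 within experiments 1 to 3 and 0.65 within experiments 4 and 5. Its slope difference was 0.23 and 0.31, the last not past the threshold within experiments 4 and 5 (limma adjusted p = 0.418). What set the experiments apart is not stated in the labels.

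**Figure D5:**
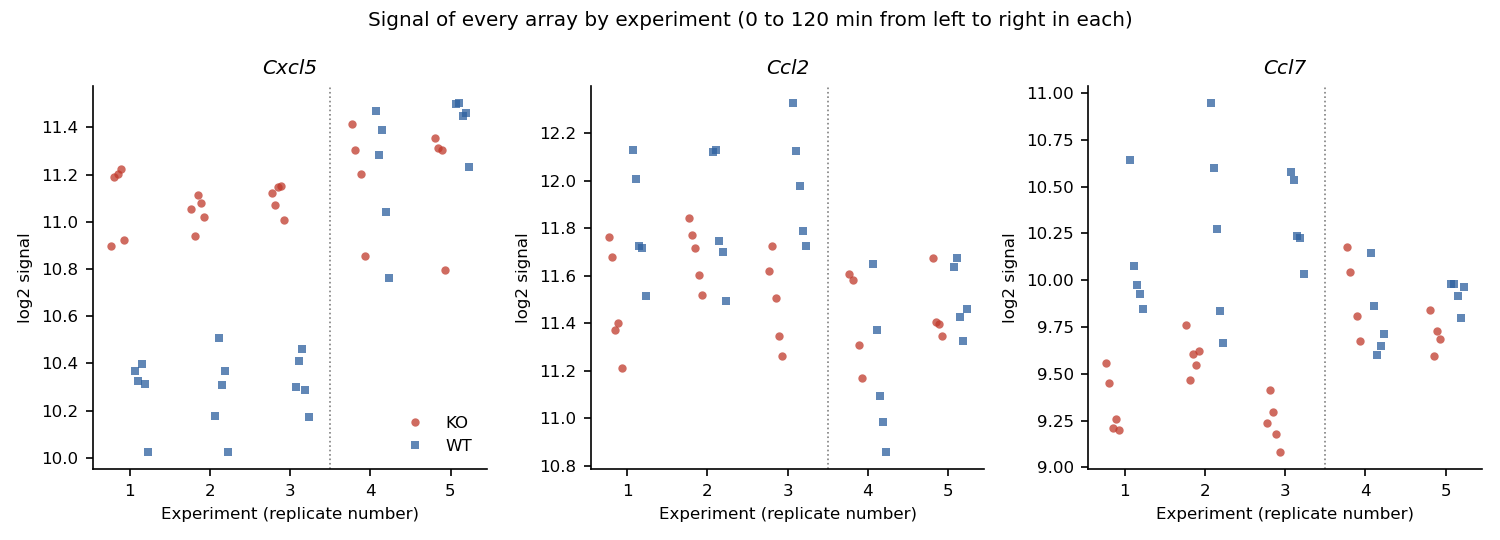
Log2 signal (vertical) of every array by experiment (horizontal) for Cxcl5, Ccl2 and Ccl7, KO as circles left of WT as squares, with the times from 0 to 120 min running left to right. WT Cxcl5 is at 10.03 to 10.51 in experiments 1 to 3 and at 10.76 to 11.50 in experiments 4 and 5, on either side of the dotted line.

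Ccl5, an attractant of T cells and monocytes, did not differ detectably between the lines over all arrays. At 0 min the KO arrays had 8.98, 9.18, 9.19 and 9.03, and the WT arrays 8.85, 8.88, 9.30, 9.10 and 9.12. The difference was 0.05 ± 0.096 at 0 min (95% interval -0.15 to 0.24) and -0.08 ± 0.090 at 120 min (-0.26 to 0.10), with limma adjusted p of 0.794 and 0.524. By the division of experiments above, KO minus WT at 120 min was 0.03 within experiments 1 to 3 and -0.25 within experiments 4 and 5. Its signal rose relative to the array average in WT, with a slope of 0.15 ± 0.038 (limma adjusted p = 0.00261). The KO slope was 0.10 ± 0.040 (0.0512, and 0.00793 with the experiment as a block).

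Across the later times the members kept a similar count of calls. Higher in KO were 3, 4, 4 and 4 of the 10 genes at 30, 60, 90 and 120 min, beside 14.52%, 10.8%, 13.8% and 18.7% of all probe sets tested. Lower in KO were 3, 3, 2 and 2 of them, beside 12%, 12.8%, 13.5% and 13.4%. By its main probe set Cxcl1 joined the higher genes at 60 min, and Ccl7 was no longer among the lower ones at 90 min. Every KO array lay above every WT array for 3, 3, 4, 4 and 4 members from 0 to 120 min, beside 9.62%, 8.93%, 9.81%, 9.99% and 12.7% of probe sets. Cxcl2 and Csf3, which reached the filter on low values through KO arrays, are in this count and among the higher genes at each time. As at 0 min, these counts are therefore a description and not support for a shift of the group. Every KO array lay below every WT array for 2 members at each time, beside 8.34%, 7.66%, 11.8%, 10.2% and 8.26%.

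Within the lines, a slope below 0 passed for 3 of 10 genes in KO (Cxcl10, Ccl2 and Csf1), beside 12.3% of probe sets, and for 4 in WT (Cxcl1, Ccl2, Ccl7 and Csf1), beside 15.1%. A slope above 0 passed for 2 in KO (Cxcl2 and Csf3), beside 15%, and for 1 in WT (Ccl5), beside 13.9%. Since Cxcl2 and Csf3 reached the filter on low values through KO arrays, their KO rises are a description and not support. This holds for the slopes and for the change from 0 to 120 min. From 0 to 30 min no member changed past the threshold in either line, where 1.25% of probe sets fell and 0.0291% rose in KO, and 1.77% fell and 0.04% rose in WT. The change to 30 min differed between the lines for none of them, beside 0.0255% of probe sets above 0 and 0.00727% below. From 0 to 120 min, 2 members rose and 2 fell in KO, beside 11.9% and 10.6%, and 1 rose and 4 fell in WT, beside 10% and 14%. In KO, Cxcl2 rose by 0.19 (limma adjusted p = 0.038) and Csf3 by 0.21 (0.00389), and Cxcl10 changed by -0.26 (0.0408) and Csf1 by -0.37 (0.00155). In WT, Ccl5 rose by 0.32 (limma adjusted p = 0.00682), and Cxcl1 changed by -0.48 (5.43e-06), Ccl2 by -0.56 (0.00427), Ccl7 by -0.61 (0.00639) and Csf1 by -0.44 (5.38e-05). The KO changes of Ccl2 (-0.41, 0.0612) and Ccl5 (0.19, 0.156) did not pass, and with the experiment as a block they did (-0.39, 0.00434, and 0.20, 0.0427). When the 0 min arrays were left out, Cxcl1 had a slope difference of 0.24, which did not pass (limma adjusted p = 0.186), and with the arrays of 0 to 60 min alone it was 0.38 (0.525).

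Of 27 other ligands of these families listed for comparison, 26 had a probe set and 17 were tested. At 0 min 1 was higher in KO and 4 were lower, beside 13.4% and 11.9% of all probe sets, and the slope difference passed for none of the 17, beside 0.785% above 0 and 0.251% below. Ccl9, a chemokine of myeloid cells, had 8.52, 8.70, 8.74 and 9.58 in KO and 10.44, 10.66, 10.93, 10.45 and 10.39 in WT, with no overlap. Its difference of -1.69 ± 0.223 (limma adjusted p = 5.9e-08) was larger in size than that of any member at 0 min. Pf4 and Ppbp, which stand next to Cxcl5 on the chromosome and are best known from platelets, were lower in KO by -0.74 ± 0.080 (adjusted p = 4.45e-10) and -1.23 ± 0.328 (0.00362). The KO arrays of Pf4, at 8.148 to 8.395, lay near the floor, which leaves the size of its difference unsettled. For Ppbp the lines overlapped, through the KO array of experiment 4 (10.673) and the WT array of experiment 3 (10.146). Cxcl15 was lower by -0.24 (adjusted p = 0.0347), and Cxcl16, the ligand of Cxcr6, was higher by 0.20 (3.54e-05). Along this stretch of chromosome 5 genes differed in both directions, with Cxcl2 higher, Pf4, Ppbp and Cxcl15 lower, and Cxcl1, Cxcl3 (0.03, adjusted p = 0.522) and Cxcl5 not past the threshold. Of 27 receptors, 25 had a probe set and 7 were tested, and none passed at 0 min or for the slope difference, beside the same shares.

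The group means of 2 members, Ccl7 and Csf1, spanned at least 1 log2, which was the rule for naming genes of like pattern. Over the 10 group means and 463 candidate genes, Csf1 correlated best with Plpp1 (r = 0.987), Meis2 (0.987) and Cyp1b1 (0.987), and Ccl7 with Epha4 (0.984), Cyp1b1 (0.976) and Irx3 (0.968). The 10 points share the same arrays for all genes. For both members every WT group mean stood above every KO group mean. A high r therefore does not separate a shared step between the lines from a shared course over time.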

How the data were processed

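Messenger RNA of 48 samples was measured on Affymetrix mouse arrays in fibroblasts of embryonic day 14.5, and scanned data were handled in GeneChip Operating Software 1.2.0.037, per the submitters' processing notes. The deposited values are log2 signals, 1 per probe set and array. The log base was inferred from their range, and the authors' probe summary, background correction and normalization are not given in the sources used here. The number of arrays limits the precision, and no array held the values of another.

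Of 45101 probe sets, 64 controls were left out, and the 27500 above the array median in at least 4 arrays were tested. A gene was represented by its probe set with the highest mean. limma 3.58.1 in R 4.3.3, tested on simulated data, fitted group means and straight lines on hours of actinomycin D over all arrays, with moderated variances (trend on signal, robust). Tests were two-sided, with Benjamini-Hochberg adjustment over the 27500 probe sets and a threshold of 0.05. Errors of differences and slopes are standard errors from the fit.

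The series text has both lines run side by side in 5 experiments on different days, and the replicate number was taken as the experiment, so the replicate numbers pair the samples. Deviations of same-numbered KO and WT arrays correlated over 0.1 in 16 of 23 pairs (-0.25 to 0.60). The fit with the replicate as a block was an alternative. Other alternatives were no filter, quantile normalization, background subtraction, no trend, no robust fit, all probe sets, each replicate left out, fewer times, and the experiments divided. Background subtraction took off each array's 5th percentile and added an offset of 50 before the log. The members, the gene lists and the rule for named genes (the 10 members, and other listed ligands or receptors past the threshold at 0 min or for the slope difference) were chosen with earlier results of these data known. Nothing says that the 5 experiments used separate cultures beyond their days, so the replicates are experiments of 1 line each. The main fit took the arrays of an experiment at its different times as separate. Its p-values therefore measure the spread of arrays about the fitted means or lines, not the spread between experiments alone. The fit with the block allows for a level shared by all arrays of an experiment. It does not allow for a level confined to 1 line of an experiment, and it too takes the times as separate. Serum-deprived samples are not analysed here.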

Additional observations from a re-analysis of the deposited data

Results flagged for a closer look

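Of 100 groups of arrays examined for 1 value standing apart from the rest, 5 held one, and chance gives about 1 in 20. The KO array of experiment 2 at 30 min had 9.367 for Ccl5, with the nearest at 9.103. The KO array of experiment 2 at 90 min had 11.251 for Csf1, with the nearest at 10.978. The WT array of experiment 3 at 90 min had 8.797 for Cxcl10, with the nearest at 8.667. The WT array of experiment 1 at 120 min had 8.589 for Csf3, with the nearest at 8.438. The WT array of experiment 4 at 0 min had 12.562 for Cxcl12, with the nearest at 12.43.

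Cxcl1 changed differently with time in the 2 lines by the test of the difference itself. The slope difference was 0.27 log2 per h (limma adjusted p = 0.000967), with KO above WT in 5 of 5 experiments, and the difference of the change from 0 to 120 min was 0.52 (0.0122).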

How the results depend on the processing

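Over all alternatives, 752 values of single genes kept their direction and side of the threshold, 40 no longer passed it, 29 newly passed and 19 turned direction, and 370 counts of members moved by less than 1.5 times and 34 by more. Leaving out the signal trend or the robust fit changed the call of none of the 60 single-gene results checked. With the replicate block, 4 members were higher and 4 lower in KO at 0 min, against 3 and 3 without it, while the shares of all probe sets were 17.9% and 14.55%, against 13.4% and 11.9%. By slope 6 members fell in WT, against 4, beside 16.9% and 15.1% of probe sets. The members whose calls changed under that pairing are given in the report.

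The percentages here are shares of all probe sets. Within experiments 1 to 3, chosen after seeing the data, 5 members were higher in KO at 30 min (10.9%), 4 were lower at 90 min (10.8%) and 4 at 120 min (11.9%), 0 rose over 120 min in WT (5.41%), and 2 slope differences were above 0 (0.451%). The added members were Cxcl1 and Cxcl5 at 30 min, Ccl2 and Ccl7 at 90 and 120 min, and Cxcl2 in slope difference. The values of Cxcl5, Ccl2 and Ccl7 prompted the division, so these counts are a description and no support. Within experiments 4 and 5, where KO has 1 array at 0 min and 1 at 60 min, assumed to vary like the other groups, 2 were higher at 60 min (8.61%). The members there that rose over 120 min in KO (3.01%), had a KO slope above 0 (5.32%), a slope difference above 0 (0.451%) or a difference of change above 0 (0.378%) numbered 0 each. With no filter 1 member rose (6.37%) and 1 fell (6.91%) over 120 min in KO, with background subtracted (offset 50) 1 rose (10.9%) and 1 fell (9.61%), and with all probe sets of each gene 1 fell. Without the arrays at 0 min, 1 KO slope was above 0 (6.14%), 1 below 0 (8.4%), and 0 slope differences were above 0 (0.229%). With arrays at 0, 30 and 60 min alone, 0 KO slopes were above (0.16%) and 0 below 0 (3.96%), 0 WT slopes above (1.55%) and 1 below 0 (5.34%), and 0 slope differences above 0 (0.0509%). Leaving out 1 replicate at a time gave 1 to 2 members that rose (6.43% to 11.5%) and 1 to 2 that fell (8.84% to 10.1%) over 120 min in KO, 1 to 3 KO slopes above 0 (9.68% to 15%), and 0 to 1 differences of change above 0 (0.211% to 0.713%). The Cxcl1 slope difference stayed between 0.23 and 0.30 (limma adjusted p 0.000333 to 0.0236).

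Direction turned within experiments 4 and 5 for the KO slope of Cxcl1 (-0.0125), for Cxcl5 at 0 and 120 min (-0.0705 and -0.172) and in slope difference (-0.0438), for Ccl2 at 120 min (0.097), for Ccl5 at 0 min (-0.086), for Ccl7 at 0, 30 and 90 min (0.112, 0.018 and 0.046) and in slope difference (-0.0764), and for the slope difference of Csf3 (-0.0027). Within experiments 1 to 3 it turned for the WT slope of Cxcl2 (0.0139), the KO slope of Cxcl5 (0.00087) and Ccl5 at 120 min (0.0337). With 0 to 60 min it turned for the WT slope of Cxcl2 (0.0014) and for the Cxcl5 slopes in KO (0.0725) and WT (0.0376). Leaving out 1 replicate moved the WT slope of Cxcl2 between -0.0166 and 0.0037 and the 0 min difference of Ccl5 between -0.0254 and 0.0819. The cause was not tested. Quantile normalization added calls for Cxcl1 at 30 min (0.24, limma adjusted p = 0.0198), Ccl7 at 120 min (-0.44, 0.0499) and the WT slope of Cxcl12 (-0.06, 0.0089). Without the 0 min arrays the slopes of Csf1 in KO (-0.15, 0.0615) and Ccl7 in WT (-0.24, 0.0787) did not pass. Signals of Cxcl2 and Csf3 in WT near the floor limit what could be detected there.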

Other observations

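Of 11 genes of the NF-kappaB pathway, which drives many chemokine genes, 10 were tested. At 0 min Bcl3, a nuclear partner of NF-kappaB, averaged 9.58 ± 0.16 in KO (SD, n = 4) and 9.16 ± 0.06 in WT (n = 5), a difference of 0.42 (limma adjusted p = 4.17e-08). Nfkbiz, a related nuclear partner, averaged 11.29 ± 0.10 in KO and 10.93 ± 0.12 in WT, a difference of 0.36 (adjusted p = 0.00178). Tnfaip3, an inhibitor of the pathway, averaged 9.13 ± 0.09 in KO and 9.98 ± 0.18 in WT, a difference of -0.84 (1.17e-14), and Rel, a subunit, differed by -0.26 (0.000933). The other 6 did not pass at 0 min. At 0 min 2 of the 10 were thus higher and 2 lower, beside 13.4% and 11.9% of all probe sets. After actinomycin D 8 of the 10 fell in each line by their slopes, beside 12.3% of probe sets in KO and 15.1% in WT, Nfkbia, the main inhibitor, by -1.20 log2 per h in KO and -1.24 in WT. No slope difference passed, with Tnfaip3 nearest the threshold (0.34, adjusted p = 0.0743). Its means at 120 min, 7.99 in KO and 8.17 in WT, lay about the floor. The difference of the change from 0 to 120 min between the lines passed for 1 of the 10 genes, above 0, beside 0.553% of probe sets.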
